A study of Rattus norvegicus with 6 samples.

Results

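The genes described are those of the FGF receptors and of their Klotho co-receptors in rat nucleus pulposus cells (NPCs) under oxidative stress, with and without added FGF21. They were taken by symbol from the combined count table and are 7 of its 20264 rows, namely the receptor genes Fgfr1, Fgfr2, Fgfr3, Fgfr4 and Fgfrl1 and the Klotho genes Klb and Kl. Of these, 4 had counts in every library and 3 (Fgfr4, Klb and Kl) had a count of 0 in all 6 libraries. NPCs are the cells of the gel-like core of the intervertebral disc, and these were primary cells from the tail discs of wild type male Sprague-Dawley rats. All 6 cultures received the oxidant tert-butyl hydroperoxide (TBHP), 3 with TBHP alone and 3 with TBHP and recombinant rat FGF21, so no library here is free of TBHP. The design text calls the 3 libraries of a group biological replicates, without saying whether they came from separate animals, so p-values measure only the spread between these libraries. In the TBHP+FGF21 group the treatment label names FGF21 only for replicate 1, and reads FGF22 in replicate 2 and FGF23 in replicate 3, while the protocol and the design name FGF21 for the whole group. The grouping followed the titles. The dose and duration used for sequencing are not given in the labels.

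FGF receptors are tyrosine kinases at the cell surface that bind FGF together with heparan sulfate, recruit the adaptor FRS2 and activate the RAS-ERK, PI3K and PLC-gamma pathways. The endocrine FGFs bind heparan sulfate weakly and need a Klotho protein as co-receptor. FGF21 acts through beta-Klotho (Klb), mainly with the c splice form of FGFR1, while FGF23 acts through alpha-Klotho (Kl). Both Klotho genes are restricted in the body, with Klb best known from liver, adipose tissue and brain and Kl from kidney. The counts are per gene, so the b and c splice forms of Fgfr1, Fgfr2 and Fgfr3 cannot be told apart.

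The genes with counts and the genes without are shown by the 250 bases before their RefSeq gene start, to set the absence of counts beside the promoter. An entry was found for 6 of the 7 genes, all but Fgfr1. The sequences come from RefSeq (GRCr8) and are written 5′ to 3′ along the gene's strand, with each CG dinucleotide in capitals. CG reads the same on both strands. Fgfr2 stands for the genes with counts, and Kl, Fgfr4 and Klb are the genes at 0.
Fgfr2 (chr1:194280915-194281164, strand -): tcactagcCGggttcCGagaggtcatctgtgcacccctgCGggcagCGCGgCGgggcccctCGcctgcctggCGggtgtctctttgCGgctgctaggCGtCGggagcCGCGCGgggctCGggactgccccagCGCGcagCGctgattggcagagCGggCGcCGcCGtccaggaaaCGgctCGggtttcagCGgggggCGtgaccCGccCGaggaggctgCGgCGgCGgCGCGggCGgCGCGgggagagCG
Kl (chr12:5325753-5326002, strand +): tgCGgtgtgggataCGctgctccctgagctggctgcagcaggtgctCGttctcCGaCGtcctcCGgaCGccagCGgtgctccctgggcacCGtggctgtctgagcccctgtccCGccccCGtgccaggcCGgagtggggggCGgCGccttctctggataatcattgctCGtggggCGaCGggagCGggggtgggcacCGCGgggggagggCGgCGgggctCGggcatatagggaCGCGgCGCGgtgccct
Fgfr4 (chr17:9481390-9481639, strand -): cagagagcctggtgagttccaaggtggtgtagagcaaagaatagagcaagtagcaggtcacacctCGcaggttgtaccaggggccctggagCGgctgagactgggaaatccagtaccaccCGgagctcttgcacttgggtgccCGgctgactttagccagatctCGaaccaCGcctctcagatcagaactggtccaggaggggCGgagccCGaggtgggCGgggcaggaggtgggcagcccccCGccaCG
Klb (chr14:43304533-43304782, strand -): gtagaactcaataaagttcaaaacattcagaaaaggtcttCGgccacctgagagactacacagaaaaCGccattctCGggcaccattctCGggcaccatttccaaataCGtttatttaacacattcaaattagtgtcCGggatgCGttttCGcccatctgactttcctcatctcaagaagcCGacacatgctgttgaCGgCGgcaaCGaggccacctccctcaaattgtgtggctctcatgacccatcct

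The Fgfr2 window held 37 CG dinucleotides and was 76.8% G or C. The windows of Fgfr3 and Fgfrl1, the other genes with counts, held 26 and 25. The Kl window, with 27 CG and 73.2% G or C, was within the range of the genes with counts. Fgfr4 and Klb had 11 and 12 CG, and the Klb window was the only one of the 6 with under 50% G or C, at 47.6%. Over the 13944 genes of the count table with a RefSeq promoter, 96.6% of the windows held at least 1 CG and the median was 13. Among the 4018 genes with 20 or more CG, the class of Kl, 4.70% had no count in any library. Among the 4375 genes with 10 to 19 CG, the class of Fgfr4 and Klb, the share was 7.15%, and among the 3260 genes with 0 to 4 it was 47.0%. Among the 2291 genes with 5 to 9 CG the share was 21.9%. Fgfr4 and Klb, with 11 and 12 CG, lay near the lower edge of their class and below the median of 13. Whether promoter CG content had a part in the zeros was not tested.

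**Figure D1:**
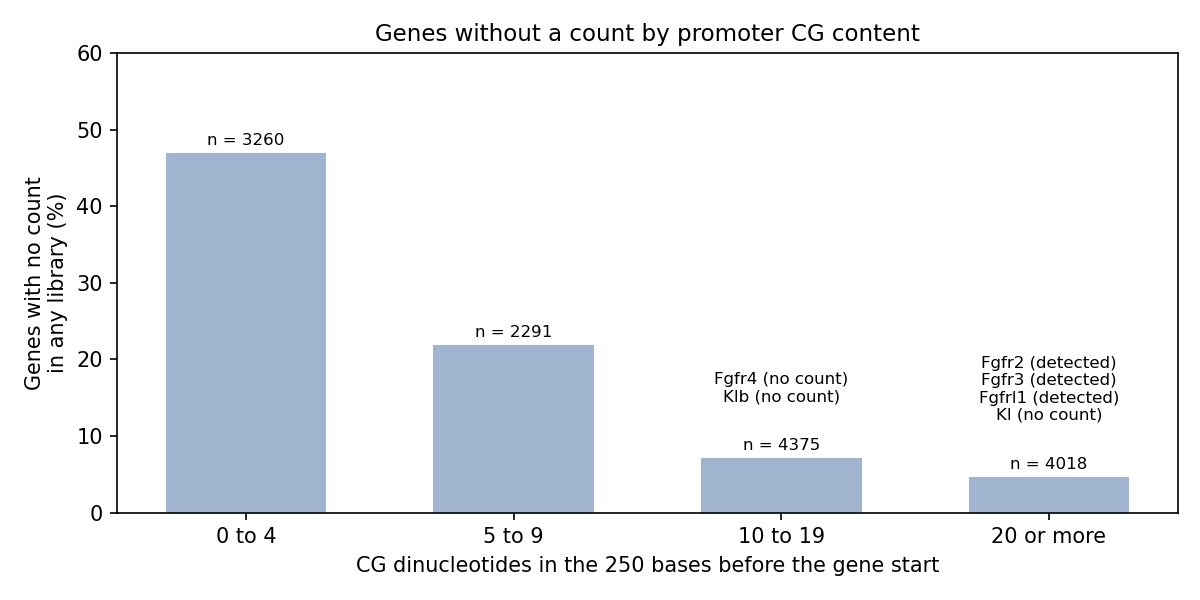
Percentage of genes with no count in any of the 6 libraries (bars) by the number of CG dinucleotides in the 250 bases before the gene start, with the number of genes above each bar. The share falls from 47.0% with 0 to 4 CG to 4.70% with 20 or more, and the 6 FGF receptor and Klotho genes with an entry, written over their class, are all in the 2 classes with 10 or more.

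The libraries held 18277732 to 22426190 counts each. No 2 libraries agreed within sampling noise (chi-square of 7.0 to 58.9 a gene over the 15 pairs). This does not show that they came from separate animals or cultures. Each was counted as a sample, as the design text calls them biological replicates. Replicate 2 of the TBHP+FGF21 group stood closer to the TBHP libraries (mean Spearman correlation 0.996) than to its own group (0.990). The tests of the receptors below are also given without that library. It was picked for its likeness to the TBHP group in these same data. Leaving it out thus favours a difference between the groups, and calls made without it, here and below, do not support one. TBHP replicate 3 also lay near the other group. Its correlation was 0.993 with TBHP replicates 1 and 2, and 0.994, 0.996 and 0.991 with TBHP+FGF21 replicates 1, 2 and 3. Among nucleus pulposus markers, Acan, the aggrecan core protein, was at 2506 to 2939 CPM (counts scaled to a common library total) in the TBHP group and at 2864 to 4355 CPM in the TBHP+FGF21 group, while Col2a1 had 68 counts in all and the notochordal genes Tbxt, Shh and Noto had none. The fibroblast and annulus marker Col1a1 was at 27868 to 42463 CPM. The name of the cells follows the tissue they were taken from. Of the nucleus pulposus markers named here, Acan was at a high level and the notochordal genes were not detected. In bulk RNA, fewer cells of a type and less RNA per cell cannot be told apart. By edgeR's quasi-likelihood test over 11426 genes, 1 gene (0.00875%) had a Benjamini-Hochberg adjusted p under 0.05, and 1019 (8.92%) had an unadjusted p under 0.05. The 1 gene was Sirt1, with 32, 38 and 35 counts in the TBHP group and 121, 111 and 113 in the TBHP+FGF21 group. Of the 14882 rows with a count, 14859 were identical to a row of the per-sample files and 22 held values that were not whole, and Sirt1 was the 1 row of whole counts that equalled none. The only identifier there with the same TBHP+FGF21 counts had 92, 138 and 125 counts in the TBHP group, and with the per-sample files no gene passed (1082 had an unadjusted p under 0.05). The rows of the FGF receptors with counts were each identical to a row of the per-sample files. Without replicate 2 of the TBHP+FGF21 group, 867 genes (7.5%) had an adjusted p under 0.05 and 2732 (23.6%) an unadjusted p under 0.05. No gene passed the adjusted p when any 1 of the TBHP libraries or TBHP+FGF21 replicate 1 was left out. The unadjusted number was then 510 without TBHP replicate 1, 337 without TBHP replicate 2, 1771 without TBHP replicate 3 and 479 without TBHP+FGF21 replicate 1, and it was 341 without TBHP+FGF21 replicate 3.

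No read was counted for either Klotho co-receptor. Klb, the co-receptor through which FGF21 is recognised, had 0, 0 and 0 counts with TBHP and 0, 0 and 0 counts with TBHP and FGF21. Kl, the co-receptor of FGF23, also had 0 in each of the 6 libraries. Both groups were thus at 0, and neither gene could be tested for a difference. A count of 0 allows up to 3 counts, which is 0.134 to 0.164 CPM in a single library and 0.0238 CPM over the 126172113 counts of all libraries. These limits cover counting error only, and a level below them was not detectable at this depth.

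Fgfr4, the receptor that pairs with beta-Klotho in hepatocytes to receive the bile acid signal FGF19, had 0 counts in each of the 6 libraries as well. It was the only FGF receptor gene of the 5 without counts. Rows at 0 were not rare, since 5382 of the 20264 rows (26.6%) had no count in any library. The genes beside the 3 loci were counted. Nsd1 and Zfp346, the protein-coding neighbours of Fgfr4 on rat chromosome 17, had 811 to 1176 and 281 to 354 counts in a library. Rpl9 and Rfc1, beside Klb on chromosome 14, had 8094 to 12805 and 487 to 647 counts. Pds5b and Stard13, beside Kl on chromosome 12, had 360 to 557 and 975 to 1325 counts.

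Tissue markers of the organs where these 3 genes are best known were also at or near 0. The hepatocyte genes Alb and Ttr had no counts, and the summed level of the 3 hepatocyte markers was 0.223 to 0.469 CPM in the TBHP group and 0.144 to 0.567 CPM in the TBHP+FGF21 group. The 4 adipocyte markers summed to 0.563 to 1.01 CPM and 0.622 to 1.31 CPM, with Fabp4, a fatty acid carrier, the highest of them. The 3 kidney tubule markers summed to 0.0469 to 0.223 CPM and 0 to 0.0872 CPM, with Umod at 0. Lctl, a relative of the Klotho genes, had 56 counts over the 6 libraries and did not pass the filter on low counts. A count of 0 in the combined table also depends on how identifiers were given symbols. Rows of zeros could not be linked to an identifier, and 1045 identifiers with over 60 counts in the per-sample files, which together with the rarer ones held 3.16% of the counts, equalled no row of the combined table. Col1a2, the partner chain of type I collagen, had only 72 counts over the 6 libraries beside 4692995 for Col1a1. Whether the counting or the annotation had a part in the zeros was not tested.

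**Figure D2:**
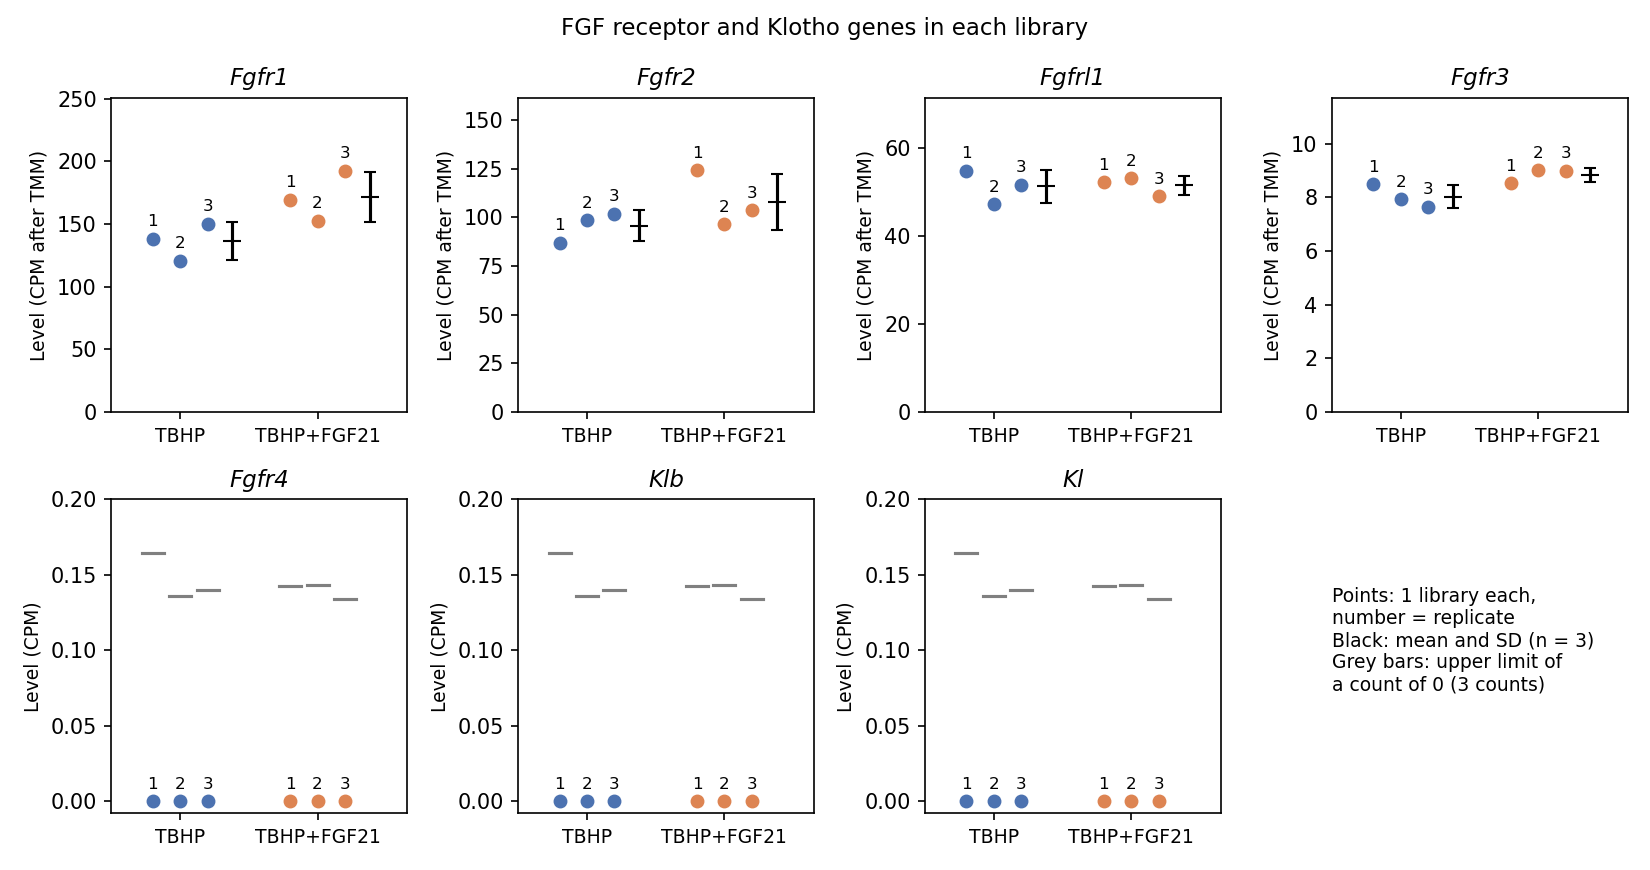
Level of each FGF receptor and Klotho gene in each library, in CPM (counts scaled to a common library total), with the TBHP group in blue and the TBHP+FGF21 group in orange; points are libraries numbered by replicate and black marks are the mean and SD (n = 3). The groups do not overlap for Fgfr1 and Fgfr3, they overlap for Fgfr2 and Fgfrl1, and Fgfr4, Klb and Kl lie at 0 below the 3-count limit of each library (grey bars, 0.134 to 0.164 CPM).

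Fgfr1, the main FGF21 receptor when beta-Klotho is present, was detected at a high count in every library. It had 2478, 2661 and 3207 counts in the TBHP replicates, or 138, 121 and 150 CPM after TMM scaling. In the TBHP+FGF21 replicates it had 3577, 3188 and 4422 counts, or 169, 153 and 193 CPM. Every TBHP+FGF21 library lay above every TBHP library, but the gap was narrow, since replicate 2 of the TBHP+FGF21 group and replicate 3 of the TBHP group differed by little. The mean was 136 ± 14.9 CPM (SD, n = 3) with TBHP and 172 ± 20.2 CPM (SD, n = 3) with TBHP and FGF21, which is 25.8% higher. The log2 fold change was 0.33 (SE 0.11, 95% interval 0.08 to 0.58). The unadjusted p of edgeR's quasi-likelihood test was 0.0131 and the adjusted p was 0.553, so Fgfr1 did not pass the test over all genes. By a two-sided exact permutation test of the 6 values p was 0.1, the smallest that 3 libraries against 3 allow. Leaving out TBHP+FGF21 replicate 2 gave a log2 fold change of 0.42 (SE 0.11) and an adjusted p by edgeR of 0.0280, in a comparison where 7.5% of all genes passed. As that library was picked for its likeness to the TBHP group, this p does not support a difference. The log2 fold change was lowest without replicate 3 of the TBHP+FGF21 group (0.25, unadjusted p = 0.0549 by edgeR) and without replicate 2 of the TBHP group (0.25, unadjusted p = 0.0736 by edgeR). Replicate 1 alone, the library whose label names FGF21, was 0.32 above the TBHP group on the log2 scale (adjusted p = 0.281 by edgeR).

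Fgfr2, whose b and c forms serve epithelial and mesenchymal cells, also had high counts. In the TBHP replicates it was at 86.9, 98.6 and 102 CPM. In the TBHP+FGF21 replicates it was at 124, 96.4 and 104 CPM. The groups overlapped, and replicate 1 of the TBHP+FGF21 group was the 1 library above the others. The means were 95.7 ± 7.85 CPM and 108 ± 14.3 CPM (SD, n = 3 each), with a log2 fold change of 0.17 (SE 0.11, 95% interval -0.07 to 0.42, adjusted p = 0.600 by edgeR, exact permutation p = 0.4). The interval reaches from a fold of 0.953 to a fold of 1.33. When TBHP+FGF21 replicate 1 was left out it was 0.07, and when replicate 2 was left out it was 0.26 (adjusted p = 0.160 by edgeR). Replicate 1 alone against the TBHP group gave 0.38 (unadjusted p = 0.0100, adjusted p = 0.154 by edgeR).

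Fgfr3, the receptor that restrains growth plate cartilage, had 152 to 206 counts in a library. It was at 8.49, 7.93 and 7.64 CPM in the TBHP replicates and at 8.53, 9.0 and 8.98 CPM in the TBHP+FGF21 replicates. The groups did not overlap, although TBHP replicate 1 and TBHP+FGF21 replicate 1 were almost level. The means were 8.02 ± 0.43 CPM and 8.84 ± 0.27 CPM (SD, n = 3 each). The log2 fold change was 0.14 (SE 0.13, 95% interval -0.15 to 0.43, adjusted p = 0.714 by edgeR, exact permutation p = 0.1). Without TBHP+FGF21 replicate 2 it was also 0.14. The direction differed between the 2 strand columns, each of which holds only part of these few reads. The label names a directional kit, yet the 2 strand columns of the per-sample files held nearly equal totals (ratio 0.977 to 0.986). Fgfr3 was at a log2 fold change of -0.11 (SE 0.17) with strand column 3. It was at 0.44 with strand column 4 (SE 0.18, unadjusted p = 0.0287, adjusted p = 0.556 by edgeR).

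Fgfrl1, a receptor that binds FGF but lacks the kinase domain, was the most even of the receptors, with a ratio of the highest to the lowest library of 1.16, against 1.18 to 1.60 in the other 3. It was at 54.8, 47.2 and 51.6 CPM in the TBHP replicates and at 52.2, 53.0 and 49.0 CPM in the TBHP+FGF21 replicates. The groups overlapped, with both the highest and the lowest library in the TBHP group. The means were 51.2 ± 3.81 CPM and 51.4 ± 2.12 CPM (SD, n = 3 each), and the log2 fold change was 0.0060 (SE 0.094, adjusted p = 0.987 by edgeR, exact permutation p = 0.9). The 95% interval was -0.20 to 0.21, or a fold of 0.871 to 1.16. The sign of so small a value was not stable, being -0.051 without TBHP replicate 2 and -0.0080 without TBHP+FGF21 replicate 2.

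Of the 7 genes, 4 passed the filter on low counts, none of these had an adjusted p under 0.05 by edgeR, and 1 (Fgfr1) had an unadjusted p under 0.05, where 8.92% of all genes did. That gene was higher with FGF21, as were 4.63% of all genes at this p, and none of the 4 was lower, as were 4.29%. None was past an absolute log2 fold change of 1 with an unadjusted p under 0.05, which 0.534% of all genes were. The number of receptor genes with an unadjusted p under 0.05 was 2 without TBHP+FGF21 replicate 2 (23.6% of all genes in that comparison), and 0 without TBHP+FGF21 replicate 3 or without TBHP replicate 2. For 2 of the 4, Fgfr1 and Fgfr3, the groups did not overlap and TBHP+FGF21 was higher, and 4.9% of all genes tested did so in that direction (9.9% in either direction).

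**Figure D3:**
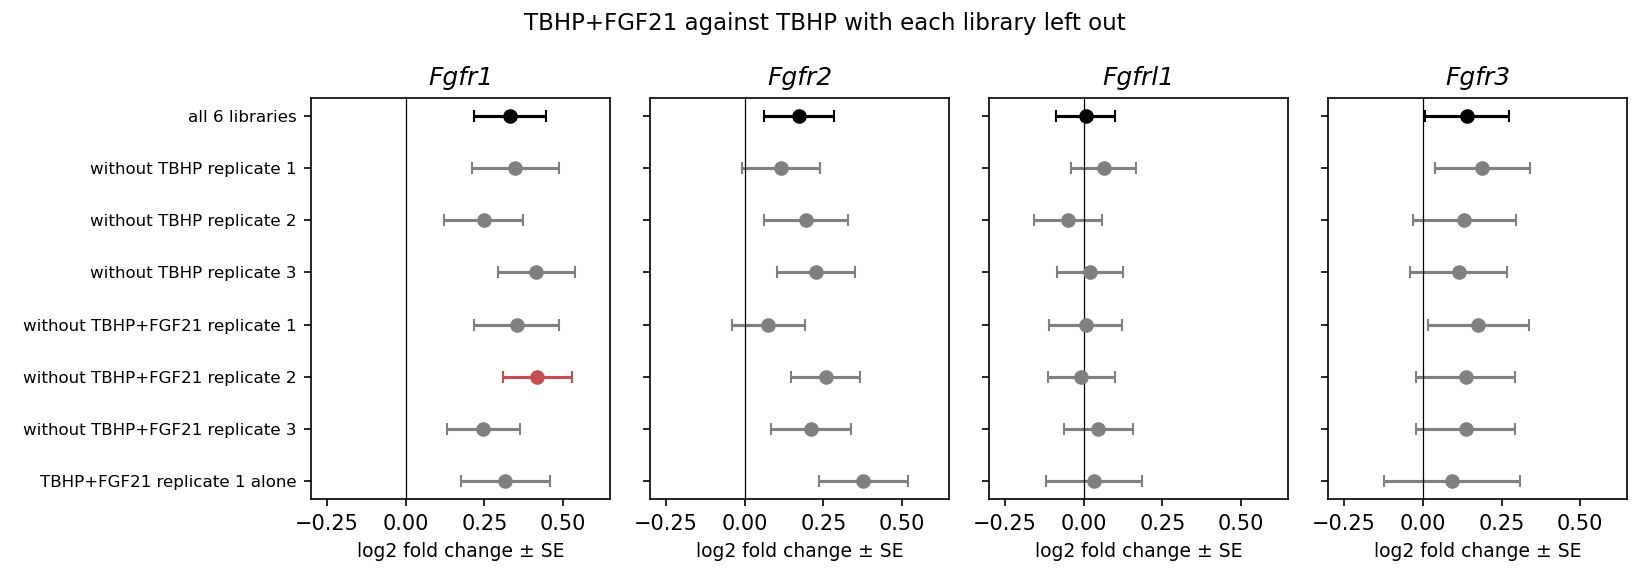
Log2 fold change of TBHP+FGF21 against TBHP (points) with its SE (bars) for the 4 receptor genes with counts, with all 6 libraries (black), with each library left out and with TBHP+FGF21 replicate 1 alone; red marks an adjusted p under 0.05 by edgeR. Fgfr1 stays between 0.25 and 0.42 when a library is left out and is red only without TBHP+FGF21 replicate 2, Fgfr2 moves between 0.07 and 0.26, and Fgfrl1 lies on both sides of 0.

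The groups overlapped in the share of receptor reads of every receptor gene. Shares of reads are not corrected for transcript length and are compared only within a gene. Fgfr1 gave 48.0%, 44.0% and 48.3% of the reads of the 5 receptor genes in the TBHP replicates and 47.8%, 49.1% and 54.4% in the TBHP+FGF21 replicates. The ranges overlapped, with replicate 3 of the TBHP+FGF21 group highest, and the means were 46.7% ± 2.40 and 50.4% ± 3.49 (SD, n = 3 each, exact permutation p = 0.3). The Fgfr2 share was 32.9% ± 2.92 and 31.8% ± 2.96 (SD, n = 3 each, exact permutation p = 0.6). The Fgfrl1 share was 17.6% ± 1.25 with TBHP and 15.2% ± 1.66 with TBHP and FGF21 (SD, n = 3 each, exact permutation p = 0.2), the lowest value being 13.8% in TBHP+FGF21 replicate 3. The Fgfr3 share was 2.76% ± 0.27 and 2.61% ± 0.25 (SD, n = 3 each, exact permutation p = 0.6). No share could reach a p under 0.05 with 3 libraries against 3. With a library left out, the difference in share stayed between 1.71 and 4.99 percentage points for Fgfr1 and between -3.31 and -1.69 for Fgfrl1. For Fgfr2 it lay between -2.79 and 0.36, being positive without TBHP replicate 2 (0.36) and without TBHP+FGF21 replicate 3 (0.10). Summed over the receptor genes the level was 289, 274 and 311 CPM in the TBHP replicates and 354, 311 and 354 CPM in the TBHP+FGF21 replicates, so replicate 2 of the TBHP+FGF21 group was level with the highest TBHP library.

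Across the 6 libraries, the receptor genes did not share a single pattern. The Pearson correlation of log2 CPM was 0.51 between Fgfr1 and Fgfr2, 0.58 between Fgfr1 and Fgfr3 and -0.22 between Fgfr2 and Fgfrl1, each over 6 libraries, which share the group difference and the depth of the library. The genes most like Fgfr1 were Nacc1 (r = 0.994), Iqsec1 (0.994) and Ppp2r5d (0.991), and 479 of 7822 genes with a mean of at least 10 CPM (6.12%) had an r over 0.9 with it. Those most like Fgfr2 were Gon4l (0.987), Casd1 (0.987) and Adgrg6 (0.986), with 104 genes (1.33%) over 0.9. For Fgfr3 they were Cd93 (0.987), Adsl (0.972) and Smg5 (0.969), and for Fgfrl1 they were Nacad (0.973), Ccdc22 (0.971) and Col4a2 (0.965), with 11 and 14 genes over 0.9. Fgfr1 thus had many genes with an r over 0.9, and Fgfr3 and Fgfrl1 few.

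The markers of nucleus pulposus cells did not point in a single direction, since of the 6 that were tested 2 had a positive and 4 a negative log2 fold change, with a median of -0.30. Acan was at 2681, 2506 and 2939 CPM in the TBHP replicates and at 3476, 2864 and 4355 CPM in the TBHP+FGF21 replicates (log2 fold change 0.40, SE 0.14, unadjusted p = 0.0156 by edgeR). Like Fgfr1 it was highest in TBHP+FGF21 replicate 3 and lowest in TBHP replicate 2. Sox9, the transcription factor of cartilage, had a log2 fold change of 0.56 (unadjusted p = 0.0241 by edgeR). The 4 others were Krt8 at -0.43 (unadjusted p = 0.0516 by edgeR, groups without overlap), Cd24 at -0.55, Car3 at -0.34 and Col2a1 at -0.26. Of the 4 tested annulus and fibroblast markers 2 were positive and 2 negative, namely Mkx at 0.22, Col1a2 at 0.08, Col1a1 at -0.19 and Scx, a tendon and annulus factor, at -0.39 (unadjusted p = 0.0265 by edgeR). None had an adjusted p under 0.05 with all libraries. Without TBHP+FGF21 replicate 2 Acan (0.54), Sox9 (0.75) and Scx (-0.60) did, in a comparison where 7.5% of all genes did. The nucleus pulposus list as a whole, 10 of 11 genes with a row and 3 of them at 0, summed to 2520 to 2954 CPM and 2877 to 4373 CPM, nearly all of it Acan. The annulus and fibroblast list, with Tnmd at 0, summed to 38415 to 42647 CPM and 27991 to 40275 CPM, nearly all of it Col1a1. Macrophage markers, with Ptprc and Adgre1 at 0, summed to 1.41 to 2.23 CPM and 1.58 to 2.31 CPM, mostly Cd68. Endothelial markers, with Cdh5 and Kdr at 0, summed to 0.281 to 0.503 CPM and 0.0474 to 0.527 CPM. The part of cell makeup in the Fgfr1 values was not tested.

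RNA of genes for FGF ligands was present in the cells. Of the 15 paracrine FGF genes, which act on receptors nearby with heparan sulfate, 7 passed the filter on low counts and 5 (Fgf3, Fgf4, Fgf5, Fgf6 and Fgf8) had no counts. Fgf7, a ligand of the b form of FGFR2, was at 164 ± 16.3 CPM with TBHP and at 164 ± 8.90 CPM with TBHP and FGF21 (SD, n = 3 each, log2 fold change 0.0057, adjusted p = 0.988 by edgeR). Fgf10, the other ligand of that form, was at 76.5 ± 5.81 and 81.7 ± 12.0 CPM (SD, n = 3 each, log2 fold change 0.09). The log2 fold change was -0.33 for Fgf1 (unadjusted p = 0.0603 by edgeR), -0.08 for Fgf2, -0.28 for Fgf9, 0.62 for Fgf16 and 0.07 for Fgf22, and none had an unadjusted p under 0.05. These genes were at lower levels, with TBHP means of 10.9 CPM for Fgf1, 11.2 for Fgf2, 4.49 for Fgf9 and 3.64 for Fgf22. Fgf16 had only 82 counts in all. Fgf18 had 14 counts in all and was not tested. Of the endocrine ligands, Fgf19 was at 0 in all libraries, and Fgf21 and Fgf23 were not analysed here. Among the intracellular FGFs, which do not act through these receptors, Fgf13 was at 18.8 ± 2.40 and 18.03 ± 3.29 CPM (SD, n = 3 each), Fgf11 and Fgf14 had 23 and 20 counts in all, and Fgf12 had none.

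Beyond the receptors, 96 genes of FGF signalling were listed, of which 72 could be tested and 8 had no counts. At an unadjusted p under 0.05 by edgeR, 5 were higher and 1 was lower in the TBHP+FGF21 group (8.33%, against 8.92% of all genes), and none had an adjusted p under 0.05. The log2 fold change was positive for 47 and negative for 25, with a median of 0.05 against -0.0052 over all genes tested. The share at an unadjusted p under 0.05 is near the background, so it is no result about the pathway. The number of 6 was 2 without TBHP replicate 1, 1 without TBHP replicate 2 and 1 without TBHP+FGF21 replicate 1. It was 17 without TBHP+FGF21 replicate 2, where 23.6% of all genes had an unadjusted p under 0.05.

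Heparan sulfate genes, which were 13 enzymes and 9 core proteins of the 72 genes tested, held 3 of the 6. Of 13 tested enzymes that build or trim heparan sulfate, 2 (15.4%) had an unadjusted p under 0.05, against 8.92% of all genes. Both were higher in the TBHP+FGF21 group, as were 4.63% of all genes at this p. The enzymes had a median log2 fold change of 0.17 with 12 of 13 positive, against 5592 of all 11426 genes tested. No test was made of the list, which was chosen with earlier results of these data known. Ndst1, which replaces acetyl by sulfate on the growing chain, was at 35.1, 28.7 and 37.6 CPM with TBHP and at 51.4, 40.7 and 43.5 CPM with TBHP and FGF21, without overlap (log2 fold change 0.42, SE 0.13, unadjusted p = 0.00580, adjusted p = 0.553 by edgeR). Hs6st2, a 6-O-sulfotransferase, was at 22.3 ± 3.16 and 28.3 ± 3.23 CPM (SD, n = 3 each, log2 fold change 0.34, unadjusted p = 0.0214 by edgeR), and its groups overlapped. Ext2, a chain polymerase, was the most read gene of the list and had a log2 fold change of 0.19. Of 9 tested core proteins, Gpc6, a glypican, was at 31.1 ± 2.87 and 38.5 ± 5.50 CPM (SD, n = 3 each, log2 fold change 0.31, unadjusted p = 0.0246 by edgeR). Gpc1, another glypican and the gene of this list with the most reads, was at 1667 ± 179 and 2037 ± 382 CPM (SD, n = 3 each, log2 fold change 0.29, unadjusted p = 0.0602 by edgeR). Without TBHP+FGF21 replicate 2, Ndst1 (0.50), Hs6st2 (0.44), Gpc1 (0.45) and Sulf2, which removes 6-O-sulfate outside the cell (0.50), had an adjusted p under 0.05 by edgeR, where 7.5% of all genes had.

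Of 5 tested membrane partners none had an unadjusted p under 0.05. Ncam1, a cell adhesion molecule that binds FGFR1, had the most reads among them and a log2 fold change of -0.10. Of 3 tested proteases that cut Klotho proteins or FGF21, none did either. Adam17, a shedding protease, was at 76.0 ± 6.16 and 80.1 ± 7.03 CPM (SD, n = 3 each). Fgfbp3, a carrier of secreted FGF, was at 1.75 ± 0.28 and 1.64 ± 0.27 CPM, and Fgfbp1 had no counts.

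Inside the cell, none of the 13 adaptors had an unadjusted p under 0.05. Their log2 fold changes lay between -0.12 and 0.23, with Shc1, the most read of them, at -0.01. In the RAS-ERK cascade, 8 of 9 genes had a row and all 8 were tested. Map2k1, the kinase MEK1 that phosphorylates ERK, had a log2 fold change of -0.24 (SE 0.095, unadjusted p = 0.0281 by edgeR) with no overlap between groups, and did not have an adjusted p under 0.05 (0.553 by edgeR). Mapk3, the kinase ERK1 and the most read of the cascade, was at 247 ± 15.7 and 289 ± 40.5 CPM (SD, n = 3 each, log2 fold change 0.23, unadjusted p = 0.0677 by edgeR).

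Of the 12 tested inhibitors and feedback genes of FGF signalling, 10 had a positive log2 fold change and the median was 0.12, against -0.0052 over all genes, and the list was not tested. Spry2, a Sprouty protein induced by FGF that blocks RAS activation, was at 96.0, 87.6 and 95.0 CPM in the TBHP replicates and at 131, 85.6 and 129 CPM in the TBHP+FGF21 replicates. Replicates 1 and 3 of the TBHP+FGF21 group lay above all TBHP libraries, and replicate 2 lay below all of them. The log2 fold change was 0.31 (SE 0.14, unadjusted p = 0.0498, adjusted p = 0.553 by edgeR). Without replicate 2 it was 0.49 (adjusted p = 0.00532 by edgeR), in a comparison where 7.5% of all genes passed. Dusp6, a phosphatase of ERK that ERK signalling induces, had a log2 fold change of -0.15 (adjusted p = 0.584 by edgeR) with no overlap between groups. Etv5, a transcription factor downstream of FGF and the most read gene of this list, was at 115 ± 3.71 and 120 ± 13.2 CPM (SD, n = 3 each, log2 fold change 0.06).

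**Figure D4:**
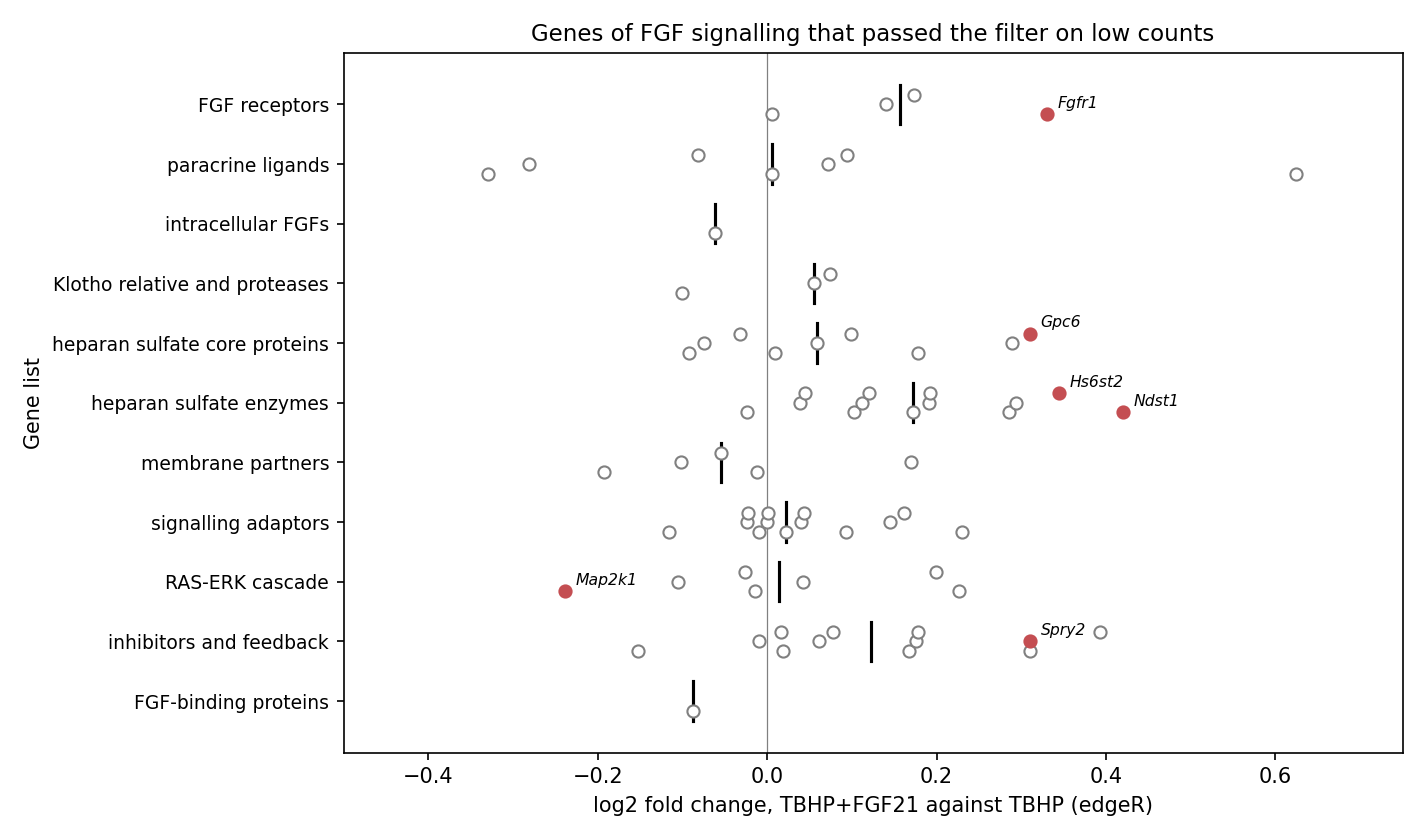
Log2 fold change of TBHP+FGF21 against TBHP for genes of FGF signalling that passed the filter on low counts, by list, with the receptors in the top row; black bars are list medians and red points have an unadjusted p under 0.05 by edgeR. The 5 named genes other than Fgfr1 lie between -0.24 (Map2k1) and 0.42 (Ndst1), and none has an adjusted p under 0.05.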

How the data were processed

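RNA-seq was measured in 6 libraries. For each library the authors deposited raw counts of reads by Ensembl identifier, not normalized, in an unstranded and 2 stranded columns, and a combined table per symbol. The combined table was handled as estimated counts, because 22 rows that the authors deposited hold values that are not whole, which were rounded up. The submitters' processing notes name STAR and featureCounts, and the genome build is not given in the sources used here. Unmapped (1.24% to 1.40%), multimapping (6.27% to 7.02%), ambiguous reads (1.72% to 2.09%) and those outside genes (9.13% to 10.4%) entered neither library sizes nor tests.

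Counts were compared with edgeR 4.0.16 in R 4.3.3 (TMM, filterByExpr with a minimum count of 10 and a minimum total of 15, glmQLFit, glmQLFTest, condition only, Benjamini-Hochberg over 11426 genes). CPM are after TMM scaling, and SE is the log2 fold change over the square root of F. Exact permutation tests were two-sided (scipy 1.17.1). Alternatives used DESeq2 1.42.0 and limma 3.58.1, other filters, scalings and columns, a replicate block and left-out libraries. The fits were tested on simulated counts. Symbols were linked to identifiers by identical counts (13204 rows), which gave ENSRNOG00000016050 for Fgfr1, ENSRNOG00000016374 for Fgfr2, ENSRNOG00000016818 for Fgfr3 and ENSRNOG00000024207 for Fgfrl1. RefSeq GRCr8 gave chromosomes, neighbours and promoters. Genes and lists were chosen with earlier results of these data known. Named were all 7 genes, listed pathway genes with an unadjusted p under 0.05, the most read gene of each list, FGF ligands with at least 10 counts, the 3 genes most like each receptor, and of the marker lists the highest gene and those at 0. Sulf2, Dusp6, Lctl and, of the markers, Sox9, Krt8, Cd24, Car3, Col2a1, Mkx, Col1a2 and Scx were named after their values were seen. A listed gene that the rule would name is not reported here, but stays in the counts and medians of its list.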

Additional observations from a re-analysis of the deposited data

How the results depend on the processing

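Of the results on the 4 receptor genes with counts, Fgfr1 and Fgfr2 kept their positive direction under every alternative run. Over alternatives other than left-out libraries the log2 fold change lay between 0.31 and 0.36 for Fgfr1 and between 0.17 and 0.38 for Fgfr2. With a library left out it was 0.25 to 0.42 for Fgfr1 (adjusted p 0.0280 to 0.982 by edgeR, under 0.05 only without TBHP+FGF21 replicate 2), 0.07 to 0.26 for Fgfr2, 0.11 to 0.19 for Fgfr3 and -0.051 to 0.064 for Fgfrl1. With strand column 3 the log2 fold change reversed to -0.11 for Fgfr3 and -0.0066 for Fgfrl1, and the latter was also reversed without TBHP replicate 2 (-0.051) and without TBHP+FGF21 replicate 2 (-0.0080). The difference in the Fgfr3 read share was -0.69 percentage points with strand column 3 and 0.38 with strand column 4. Genes with an adjusted p under 0.05 numbered 0 with the per-sample files (unstranded 1082, strand column 3 956 and strand column 4 1049 with an unadjusted p under 0.05), 0 with limma-voom (996 unadjusted), 4 with DESeq2, 5 without a filter, 325 with TBHP+FGF21 replicate 1 alone and 0 to 867 with a library left out. Unadjusted, they numbered 1669 with replicate 1 alone and 337 to 2732 with a library left out. Past an absolute log2 fold change of 1 with an unadjusted p under 0.05 were 61 genes (0.534%), 146 without a filter, 20 with a minimum count of 30, 189 with replicate 1 alone and 51 to 200 with a library left out. FGF signalling genes with an unadjusted p under 0.05 numbered 1 to 17 with a library left out, where 337 to 2732 of all genes did. With an adjusted p under 0.05 they numbered 0 to 5, where 0 to 867 of all genes did. The 17 and the 5 came without TBHP+FGF21 replicate 2, where the shares of all genes were 23.6% and 7.5%. Receptor genes with an unadjusted p under 0.05 numbered 2 with strand column 4 (1049 of all genes) and 0 to 2 with a library left out (337 to 2732 of all genes). With replicate 1 alone, that library is assumed to vary like the TBHP group.

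The deviations of same-numbered libraries from their group means correlated at -0.12, 0.20 and 0.14, and those of other pairs at -0.25 to 0.18. Replicates 2 and 3 of the TBHP+FGF21 group correlated best with their own number, and replicate 1 with TBHP replicate 3. Whether the replicate numbers pair the samples cannot be told from so few values. With the replicate number as a block the adjusted calls numbered 2, the unadjusted calls 1599 and the FGF signalling genes 11, and Fgfr1 had a log2 fold change of 0.33 (adjusted p = 0.121 by edgeR). Read shares per kilobase were not run, as no transcript lengths were used here. The causes of these shifts were not tested.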
